A study of Mus musculus with 6 samples.

Results

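Complex I of the respiratory chain was examined through the genes whose symbols start with Nduf, which name its nuclear-encoded subunits and many of its assembly factors. The expression table held 48 such genes among 18169, of which 40 carried subunit names and 8 were assembly factors with names that start with Ndufaf. Hepa 1–6 cells, a line from a mouse hepatoma, were given Shh (Sonic hedgehog, a secreted ligand of the Hedgehog pathway) or vehicle, and RNA selected on oligo(dT) beads was sequenced from 3 libraries per group. Both groups were the same line with no further treatment in the labels, and the Shh dose and exposure time of these libraries were not named. Nothing in the labels stated that replicate libraries were grown as separate cultures, and p-values therefore reflect only how far these libraries vary, which may be technical variation. A single tumour line served as the model, and within such a bulk culture a smaller number of cells of a kind cannot be told apart from less RNA per cell.

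Complex I is the entry point of the mitochondrial respiratory chain. It takes electrons from NADH, passes them through a flavin and a row of iron-sulfur clusters to ubiquinone, and pumps protons across the inner membrane. It has a peripheral arm in the matrix that holds the nuclear-encoded catalytic core, a membrane arm whose core is encoded by mitochondrial DNA, and many accessory subunits around both. Assembly factors insert cofactors and hold intermediates together, and they are not part of the finished enzyme. Hepatocytes are rich in mitochondria and rely on this enzyme to reoxidise the NADH formed by fatty acid oxidation. The subunits encoded by mitochondrial DNA and the subunit Ndufb1 were not analysed here.

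Promoters of 4 genes picked by their values in the comparison of Shh with vehicle show their start sites and the motifs there. No single gene passed the test of that comparison across all genes, and a tie between motifs and fold changes was not tested. RefSeq promoter sequences of mouse build GRCm38.p6, each from 250 bases before to 50 bases after a transcription start, matched 41 of the 48 genes with 43 promoters. Ndufa11 (chr17:56717512-56717811, plus strand) had the smallest p, and Ndufs8 (chr19:3912725-3913024, minus strand) had the lowest log2 fold change of the core. Ndufaf5 (chr2:140170396-140170695, plus strand) had the lowest of the Ndufaf genes. Ndufaf4 (chr4:24897833-24898132, plus strand) was the only Ndufaf gene above 0, a sign that turned under an offset for transcript length. Capitals mark the bases covered by matches on either strand to the NRF1 motif GCGCANGCG in Ndufa11, Ndufaf5 and Ndufaf4, and a match on the reverse strand to the ETS motif CCGGAAG in Ndufs8.
Ndufa11: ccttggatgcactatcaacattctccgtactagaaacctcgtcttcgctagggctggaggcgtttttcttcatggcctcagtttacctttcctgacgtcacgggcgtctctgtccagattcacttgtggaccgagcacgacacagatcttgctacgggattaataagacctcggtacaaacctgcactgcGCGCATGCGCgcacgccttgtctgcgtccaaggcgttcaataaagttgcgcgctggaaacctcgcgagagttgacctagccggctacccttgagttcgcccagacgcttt
Ndufs8: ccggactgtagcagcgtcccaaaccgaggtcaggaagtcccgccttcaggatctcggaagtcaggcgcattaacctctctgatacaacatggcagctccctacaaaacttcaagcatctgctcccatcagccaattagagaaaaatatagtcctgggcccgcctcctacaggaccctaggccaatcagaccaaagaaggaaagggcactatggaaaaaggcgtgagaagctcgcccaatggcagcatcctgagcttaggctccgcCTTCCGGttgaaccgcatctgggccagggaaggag
Ndufaf5: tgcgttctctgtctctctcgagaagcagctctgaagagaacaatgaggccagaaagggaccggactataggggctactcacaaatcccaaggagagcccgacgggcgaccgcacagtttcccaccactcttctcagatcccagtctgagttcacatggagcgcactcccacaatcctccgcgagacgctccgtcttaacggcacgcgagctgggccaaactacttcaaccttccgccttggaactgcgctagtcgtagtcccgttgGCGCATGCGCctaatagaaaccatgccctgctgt
Ndufaf4: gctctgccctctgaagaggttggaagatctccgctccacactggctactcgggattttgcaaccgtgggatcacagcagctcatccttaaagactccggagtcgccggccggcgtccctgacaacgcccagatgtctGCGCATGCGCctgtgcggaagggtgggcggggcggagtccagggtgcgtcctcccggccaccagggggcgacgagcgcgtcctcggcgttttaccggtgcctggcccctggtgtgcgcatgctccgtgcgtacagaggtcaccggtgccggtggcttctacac

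NRF1, YY1, the ETS factor GABP and ERR are known activators of nuclear genes for respiratory chain subunits, and their motifs were counted in the same windows. Searched on both strands, GCGCANGCG was present in 11 of the 43 promoters (25.6%), against 6.25% of 32851 promoters in all and 12.8% of the 12555 promoters of tested genes. These belonged to 10 genes, namely Ndufa5, Ndufa6, Ndufa8, Ndufa11, Ndufb4, Ndufb10, Ndufs5 and Ndufs6 among the subunits and Ndufaf4 and Ndufaf5 among the assembly factors. Ndufa5 entered with overlapping promoter windows that share the same match, which was thus counted more than once. The YY1 motif AANATGGCG was present in 8 of 43 (18.6%), against 2.38% of all and 4.84% of those of tested genes, at Ndufa7, Ndufa9, Ndufb11, Ndufc1, Ndufs4, Ndufs6, Ndufs7 and Ndufaf8. The ETS motif CCGGAAG was present in 6 of 43 (14.0%), against 8.86% of all and 17.4% of those of tested genes. The ERR motif TCAAGGTCA was present in 0 of 43, against 0.423% of all and 0.279% of those of tested genes. Matches of different motifs overlapped in 0 cases, and a match describes these letters in this window and not a binding site.

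On average, most subunit genes were slightly lower in the Shh than in the vehicle libraries. Of the 740 genes of like transcript length (489 to 959 bases), 88.5% were lower too. The median of the Ndufaf genes lay closer to the vehicle level, and no single gene passed the test across all genes. Counts were scaled to CPM (counts relative to a common library total, with TMM factors), and the fold change of Shh over vehicle was taken on the log2 scale. Of the 48 genes, 46 passed the expression filter, which left out Ndufa4l2 and Ndufb4b, and 12286 genes were tested in all. At an adjusted p under 0.05, 0 of the 46 were called by edgeR's quasi-likelihood test with Benjamini-Hochberg adjustment and 0 by DESeq2, and the share of all tested genes called was likewise 0%. Without adjustment, edgeR placed 17 of the 38 tested subunit genes (44.7%) at p under 0.05 with a lower level in Shh. The same held for 1 of the 8 Ndufaf genes, 5.56% of all tested genes and 29.9% of the 740 genes of like length. DESeq2 placed 20 subunit genes and 0 Ndufaf genes there, against 3.87% of all tested genes. On the higher side, both tools placed Ndufb4c alone, against 4.83% of all tested genes in edgeR and 2.76% in DESeq2. The median log2 fold change was -0.14 over the 38 subunit genes, -0.073 over the 8 Ndufaf genes and 0.0028 over all tested genes. The difference between subunit and assembly factor genes was not tested, since the genes of a library are not replicates.

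A further description counted genes whose 3 Shh values all lay below their 3 vehicle values. This held for 18 of the 38 subunit genes (47.4%) and 0 of the 8 Ndufaf genes, against 8.67% of all tested genes. It also held for 31.1% of the 740 genes of 489 to 959 bases. Among the 18 were Ndufs7 and Ndufs8 of the core, Ndufa5, Ndufa7, Ndufa9 and Ndufv3 of the peripheral arm, Ndufa3, Ndufa10, Ndufa11, Ndufa13, Ndufb4, Ndufb8, Ndufb9, Ndufb11 and Ndufs5 of the membrane arm, the acyl carrier Ndufab1, and Ndufa4. The named genes stood at 92.4% to 98.2% of their vehicle means in the first Shh replicate, at 74.3% to 89.8% in the second and at 82.1% to 97.9% in the third. Separation in the other direction held for Ndufb4c, against 6.79% of all tested genes. A log2 fold change below 0 was found for 36 of 38 subunit genes and 7 of 8 Ndufaf genes, against 48.8% of all tested genes, and the 3 above 0 were Ndufs1, Ndufb4c and Ndufaf4. Under an offset for transcript length 10 of the 46 genes changed sign, Ndufaf4 among them.

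**Figure D1:**
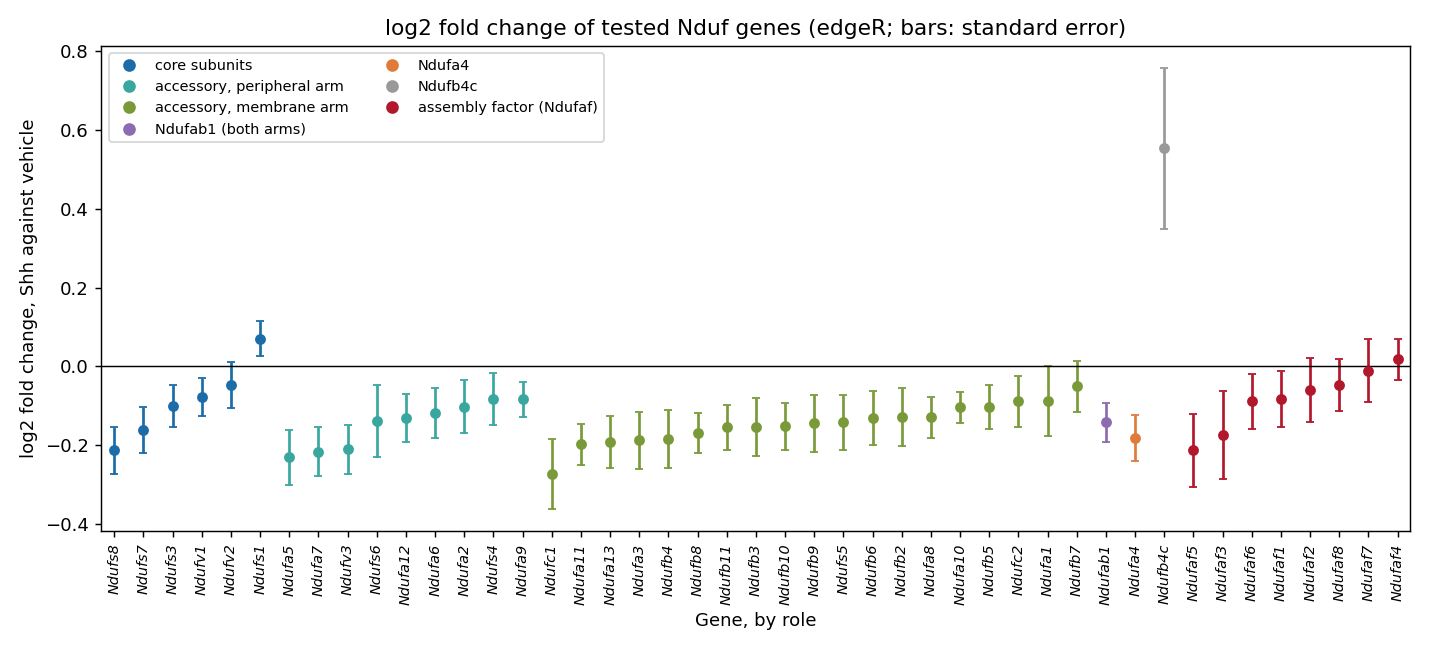
Log2 fold change of Shh over vehicle for 45 of the 46 tested genes, ordered by role, with points for the edgeR estimate and bars for its standard error (3 libraries per group). In this fit, without a length offset, all accessory subunits of both arms lie below 0, and Ndufs1, Ndufb4c and Ndufaf4 lie above it.

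The values of single libraries differed within the Shh group. Set against the mean of the vehicle libraries, the median log2 ratio of the subunit genes was -0.056, -0.28 and -0.068 in Shh replicates 1, 2 and 3, and it lay between -0.0053 and 0.0032 in the vehicle libraries. The same median for the Ndufaf genes was -0.034, -0.16 and 0.00049 in Shh replicates 1, 2 and 3, and it lay between -0.014 and 0.055 in the vehicle libraries. Shh replicate 2 was the lowest Shh library for 37 of 38 subunit genes and for 7 of 8 Ndufaf genes. Most subunit genes lay below their vehicle mean in each Shh library, with 32, 36 and 33 of 38 below it in replicates 1, 2 and 3. In the same order this held for 1447, 2009 and 1671 of the 2295 shortest genes by transcript length. Over all 12286 tested genes it held for 6187, 6120 and 6231. Summed over the subunit genes, the level was 4157, 4138 and 4133 CPM in the vehicle libraries and 4007, 3448 and 3899 CPM in the Shh libraries. The Ndufaf genes summed to 187, 184 and 194 CPM in the vehicle libraries and 187, 169.6 and 189 CPM in the Shh libraries.

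**Figure D2:**
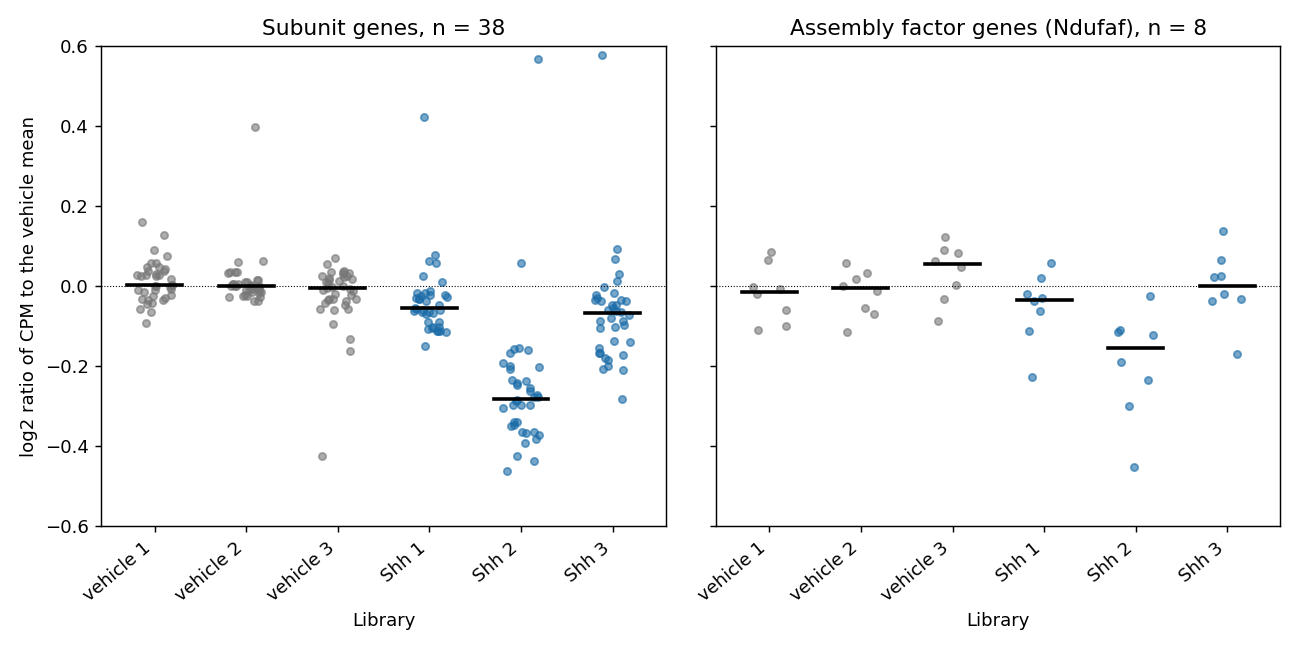
Log2 ratio of each gene's CPM to its vehicle mean in every library, with one point per gene, the 38 tested subunit genes at left, the 8 Ndufaf genes at right and black bars for medians. The subunit median lies lowest in Shh replicate 2, at -0.28, and at -0.056 and -0.068 in the other Shh libraries.

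The series as a whole set limits on these values. Libraries held 20253781 to 20335463 counts, and the 45 tested genes reported here had 40.4 to 6059 counts per library. Between replicates, the chi-square of the counts divided by its degrees of freedom was 1.70 to 2.33 in vehicle and 4.13 to 9.64 in Shh, above sampling noise for each pair. Against the vehicle libraries it was 2.18 to 2.67 for Shh replicate 1, 9.73 to 12.2 for replicate 2 and 2.83 to 4.91 for replicate 3. Shh replicate 1 thus lay nearer to every vehicle library than to the other Shh libraries, and Shh replicate 3 lay nearest to vehicle replicate 3. The libraries did not group by treatment in this measure. The hepatocyte markers Alb, Afp and Hnf4a were present at 967 to 1022, 378 to 401 and 190 to 200.2 CPM, while Apoa1, Apoa2, Ttr and Serpina1a lay between 0 and 3.41 CPM. The marker Trf ran from 588 to 599.7 CPM in vehicle and from 535 to 570.3 CPM in Shh, with no overlap and a log2 fold change of -0.11 (SE 0.0394) (adjusted p 0.469 in edgeR). The Hedgehog targets Gli1 (2.14 to 2.70 CPM) and Ptch1 (31.4 to 36.9 CPM) had log2 fold changes of 0.036 and 0.030. Summed levels of the 6 stellate cell and fibroblast markers were 18.7 to 33.6 CPM in vehicle, 54.5 CPM in Shh replicate 1 and 16.1 to 16.5 CPM in the other Shh libraries. Sums of the 5 macrophage markers were 18.9 to 20.0 CPM in vehicle and 15.4 to 25.8 CPM in Shh, and those of the 4 endothelial markers 1.14 to 2.34 CPM and 1.23 to 2.72 CPM. Their part in the values of the complex I genes was not tested.

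The 7 nuclear core subunits carry the redox centres, and their values were spread from Ndufs8, the lowest fold change, to Ndufs1, the highest. Ndufs8 (gene ID 225887), which carries a pair of iron-sulfur clusters on the way to ubiquinone, stood at 98.3, 98.0 and 100.1 CPM in the vehicle libraries and 94.1, 80.3 and 81.1 CPM in the Shh libraries. The groups did not overlap, replicates 2 and 3 of Shh were the low ones, and the log2 fold change was -0.21 (SE 0.0586), with an adjusted p of 0.469 in edgeR. Ndufs7 (gene ID 75406), which holds the last iron-sulfur cluster before ubiquinone, stood at 66.1, 66.7 and 67.5 CPM in the vehicle libraries and 65.5, 55.8 and 57.7 CPM in the Shh libraries. Its Shh libraries came in the same order as those of Ndufs8, with no overlap and a log2 fold change of -0.16 (SE 0.0586).

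Ndufs3, a further subunit of the matrix arm, stood at 68.8, 69.3 and 64.8 CPM in the vehicle libraries and 64.8, 58.8 and 65.5 CPM in the Shh libraries, with overlapping groups and -0.10 (SE 0.0532) on the log2 scale. The NADH-binding flavoprotein Ndufv1 stood at 92.2, 91.6 and 88.0 CPM in the vehicle libraries and 89.5, 81.1 and 86.8 CPM in the Shh libraries, and its groups overlapped at a log2 fold change of -0.079 (SE 0.0483). Its partner Ndufv2 stood at 114, 112 and 113 CPM in the vehicle libraries and 118, 98.9 and 112 CPM in the Shh libraries, where Shh replicate 1 was the highest library and Shh replicate 2 the lowest, and the log2 fold change was -0.048 (SE 0.0575).

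Ndufs1 (gene ID 227197), the largest core subunit and the holder of several iron-sulfur clusters, was the one core gene above 0. It stood at 113, 113 and 121 CPM in the vehicle libraries and 121, 120.2 and 123 CPM in the Shh libraries, so that the groups overlapped at vehicle replicate 3. Its log2 fold change was 0.070 (SE 0.0438), with an adjusted p of 0.570 in edgeR. Over the core as a whole, 6 of 7 fold changes lay below 0 and 3 of 7 had no overlap between groups. An unadjusted p under 0.05 was found for 2 of 7, both lower. In this order the shares of all tested genes were 48.8%, 8.67% and 5.56%. The median length of the core genes was 1491 bases. Among the 1516 genes of 905 to 1507 bases the shares were 79.9%, 20.4% and 15.0%.

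Accessory subunits of the peripheral arm stabilise the core and link its modules. All 9 lay below 0, from -0.23 to -0.084 with a median of -0.13. Under an offset for transcript length 7 of 9 did so, against 52.1% of all genes. An unadjusted p under 0.05 was found for 3 of 9, against 5.56% of all tested genes, and no overlap for 4 of 9, against 8.67%. The median length of the 9 was 553 bases. Among the 740 genes of 489 to 959 bases these 2 shares were 29.9% and 31.1%. Ndufa5 (gene ID 68202) stood at 59.4, 57.1 and 57.9 CPM in the vehicle libraries and 53.8, 43.2 and 51.7 CPM in the Shh libraries, which placed the Shh libraries at 92.5%, 74.3% and 88.9% of the vehicle mean. Its log2 fold change was -0.23 (SE 0.0699), with an adjusted p of 0.469 in edgeR. Ndufa7 stood at 107, 103 and 99.1 CPM in the vehicle libraries and 96.0, 79.6 and 91.1 CPM in the Shh libraries, with no overlap and a log2 fold change of -0.22 (SE 0.0632). Ndufv3, a small subunit beside the flavoproteins, stood at 84.2, 79.0 and 76.8 CPM in the vehicle libraries and 74.4, 62.6 and 70.3 CPM in the Shh libraries, again without overlap and at -0.21 (SE 0.0627) on the log2 scale. In each of these 3 genes Shh replicate 2 was the lowest library and Shh replicate 1 the highest of the Shh group. The remaining 6 were Ndufa2, Ndufa6, Ndufa9, Ndufa12, Ndufs4 and Ndufs6, at -0.14 to -0.084, of which Ndufa9 had no overlap.

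The membrane arm held the largest group, 19 accessory subunits, all below 0 at -0.27 to -0.051 with a median of -0.15. Under the length offset 16 of them lay below 0, against 52.1% of all genes. Of the 19, 10 had an unadjusted p under 0.05, against 5.56% of all tested genes, and 9 had no overlap, against 8.67%. Their median length was 638 bases. Among the 740 genes of 489 to 959 bases these 2 shares were 29.9% and 31.1%. Ndufa11 (gene ID 69875), a membrane subunit at the contact between complexes I and III in supercomplexes, had the smallest p of all 46 genes. It stood at 95.8, 93.4 and 92.5 CPM in the vehicle libraries and 87.4, 76.8 and 81.3 CPM in the Shh libraries, and the Shh libraries were at 93.1%, 81.8% and 86.6% of the vehicle mean. The log2 fold change was -0.20 (SE 0.0513) with an adjusted p of 0.469 in edgeR. Ndufb8, a membrane subunit whose protein level is widely used as a marker of assembled complex I, stood at 199, 207 and 210.4 CPM in the vehicle libraries and 193, 169 and 186 CPM in the Shh libraries. Its groups did not overlap, and the log2 fold change was -0.17 (SE 0.0511). The lowest fold change of any member belonged to Ndufc1, at -0.27 (SE 0.0887), but its vehicle libraries ranged from 43.9 to 55.0 CPM and reached into the Shh range of 35.6 to 44.3 CPM.

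Ndufab1, the mitochondrial acyl carrier protein, sits in both arms and also serves mitochondrial fatty acid synthesis. It had a log2 fold change of -0.14 (SE 0.0494) with no overlap, at 92.8%, 84.4% and 94.5% of the vehicle mean in the 3 Shh libraries. Ndufa4 carries a complex I name but its protein is now assigned to complex IV, cytochrome c oxidase. It stood at 295, 290.5 and 299.7 CPM in the vehicle libraries and 273, 232 and 276 CPM in the Shh libraries, with no overlap and a log2 fold change of -0.18 (SE 0.0587). Its paralog Ndufa4l2, a gene known for its induction by hypoxia, had only 0.0491 to 0.297 CPM in any library and was not tested. With Ndufa4, Ndufa4l2, Ndufb4b and Ndufb4c left out, 36 subunits remained, and their median was again -0.14. Of the 36, 16 had an unadjusted p under 0.05 on the lower side. The share was 5.56% of all tested genes and 29.9% of the 740 genes of 489 to 959 bases.

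Ndufb4, Ndufb4b and Ndufb4c are named as copies of a gene, so that reads may be split among them and their values are uncertain. Ndufb4, a membrane subunit, stood at 47.7, 51.8 and 49.5 CPM in the vehicle libraries and 45.9, 37.9 and 47.2 CPM in the Shh libraries, with no overlap and a log2 fold change of -0.19 (SE 0.0734). Ndufb4c, which GENCODE M21 lists as a processed pseudogene, lay on the other side of 0, at 2.89, 3.89 and 1.98 CPM in the vehicle libraries and 3.96, 4.43 and 4.47 CPM in the Shh libraries. Every Shh library lay above every vehicle library, the log2 fold change was 0.55 (SE 0.204) and the adjusted p was 0.469 in edgeR. The counts of both genes were estimates that are not whole, at 787 to 1040.2 per library for Ndufb4 and 40.4 to 91.5 for Ndufb4c, and how reads were divided between them was not tested. Ndufb4b had 6.48 counts in vehicle replicate 2 and 0 in the other 5 libraries, where a count of 0 allows up to 0.145 to 0.15 CPM at 3 counts, counting error only. No fold is given for it.

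The median of the 8 Ndufaf assembly factors lay closer to 0 than that of the subunits, while Ndufaf5 and Ndufaf3 lay beyond the subunit median. The median of 11 assembly factors without an Nduf name, at -0.13, was near that of the subunits, at -0.14. Ndufaf5, which hydroxylates an arginine of Ndufs7, was the one with an unadjusted p under 0.05, at 20.6, 21.1 and 20.2 CPM in the vehicle libraries and 20.2, 14.9 and 18.3 CPM in the Shh libraries. Shh replicate 1 lay within the vehicle values and replicate 2 far below them, and the log2 fold change was -0.21 (SE 0.0923) with an adjusted p of 0.473 in edgeR. Ndufaf7, a methyltransferase of the assembly pathway, stood at 20.0, 18.8 and 17.7 CPM in the vehicle libraries and 18.0, 17.3 and 20.7 CPM in the Shh libraries, with the highest library in Shh and a log2 fold change of -0.011 (SE 0.0796).

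Ndufaf3 and Ndufaf4 work as partners early in assembly of the ubiquinone-binding module. Ndufaf3 stood at 7.93, 8.52 and 9.40 CPM in the vehicle libraries and 7.28, 6.89 and 8.73 CPM in the Shh libraries, with overlap and a log2 fold change of -0.18 (SE 0.112). Ndufaf4 stood at 61.7, 59.6 and 66.7 CPM in the vehicle libraries and 65.1, 61.5 and 63.7 CPM in the Shh libraries, with the Shh values inside the vehicle range and a log2 fold change of 0.018 (SE 0.0522). The fold change of Ndufaf4 was below 0, at -0.012, under the length offset, at -0.0043 with GENCODE lengths, at -0.0021 without Shh replicate 1 and at -0.017 without vehicle replicate 2. Ndufaf6, a further early factor, stood at 15.7, 17.0 and 17.9 CPM in the vehicle libraries and 15.5, 15.6 and 16.4 CPM in the Shh libraries and had a log2 fold change of -0.089 (SE 0.0702).

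Ndufaf1 belongs to the complex that assembles the membrane arm, and it stood at 16.1, 17.5 and 16.9 CPM in the vehicle libraries and 16.4, 14.7 and 16.6 CPM in the Shh libraries, a log2 fold change of -0.084 (SE 0.0713). Ndufaf2, a paralog of the subunit Ndufa12 that acts late in assembly, stood at 26.6, 23.5 and 26.3 CPM in the vehicle libraries and 25.1, 21.5 and 26.6 CPM in the Shh libraries, a log2 fold change of -0.061 (SE 0.0815). Ndufaf8, a partner of Ndufaf5, stood at 18.6, 18.0 and 19.5 CPM in the vehicle libraries and 19.0, 17.2 and 18.2 CPM in the Shh libraries, a log2 fold change of -0.048 (SE 0.0663). All 3 genes had overlapping groups. Adjusted p-values of the 8 factors ran from 0.473 to 0.969 in edgeR, and those of the 38 subunit genes from 0.469 to 0.792.

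Complex I assembly factors without an Nduf name were read beside them, with 11 of 12 listed genes in the table, all tested, and Coa1 not analysed here. Of these 11, 8 lay below 0 with a median of -0.13, against 48.8% of all tested genes. In edgeR 2 had an unadjusted p under 0.05, both lower, 4 had no overlap, and 0 were called, where all tested genes had 5.56%, 8.67% and 0%. Under the length offset their median was -0.076, against -0.036 for the subunit genes and -0.011 for the Ndufaf genes. With GENCODE lengths these medians were -0.065, -0.045 and -0.0067. The offset without Shh replicate 1 gave -0.020, -0.045 and 0.011. Dmac1, a factor of the distal membrane arm, stood at 48.8, 51.4 and 50.9 CPM in the vehicle libraries and 46.3, 40.6 and 45.1 CPM in the Shh libraries, a log2 fold change of -0.20 (SE 0.0563). Ecsit and Tmem126a had log2 fold changes of -0.15 (SE 0.0608) and -0.13 (SE 0.0621). The 9 regulators of mitochondrial biogenesis lay on both sides of 0 with a median of 0.016. In edgeR 0 had an unadjusted p under 0.05, against 5.56% of all tested genes on the lower side and 4.83% on the higher side. Their median length was 3868 bases, and the 2294 genes of 3158 to 4502 bases had a median log2 fold change of 0.035. The 3 with the smallest p were Gabpa at 0.11 (SE 0.0664), Esrra at -0.066 (SE 0.0519) and Ppargc1b at 0.16 (SE 0.166), each with overlapping groups. Under the length offset Gabpa was at 0.059, Esrra at -0.052 and Ppargc1b at 0.067.

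Levels between genes were compared per length, in the FPKM values deposited by the authors. The subunit genes stood far above their assembly factors, with medians of 125 to 131 FPKM against 16.0 to 17.5 FPKM in the vehicle libraries, where all tested genes had a median of 9.64 to 9.71 FPKM. The ratio of the medians was 8.14, 8.07 and 7.12 in the vehicle libraries and 7.52, 7.03 and 7.04 in the Shh libraries, so that the groups overlapped at vehicle replicate 3. In each library 33 to 35 of the 38 subunit genes exceeded every Ndufaf gene. Ndufa4 was highest at 652 ± 11.8 FPKM (vehicle mean ± SD, n = 3), followed by Ndufb9 at 355 ± 7.45 FPKM, and Ndufb8 at 303 ± 8.09 FPKM.

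The core subunits had a lower median level, 75.2 FPKM, than the accessory subunits of the peripheral arm (135 FPKM) and the membrane arm (134 FPKM). Within the core, Ndufs1 was lowest at 42.4 ± 2.05 FPKM. Among the assembly factors Ndufaf2 at 47.8 ± 4.20 FPKM and Ndufaf8 at 41.6 ± 1.85 FPKM were the highest and reached the lowest subunits, while Ndufaf3 was lowest at 6.14 ± 0.544 FPKM. In the full order of 46 genes, 23 of 45 neighbouring pairs overlapped in their vehicle values, and the coefficient of variation of a gene over the vehicle libraries had a median of 2.81%. Ndufa11 came out as the least abundant subunit apart from Ndufb4c, at 35.6 ± 0.529 FPKM, a value that rests on its length.

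**Figure D3:**
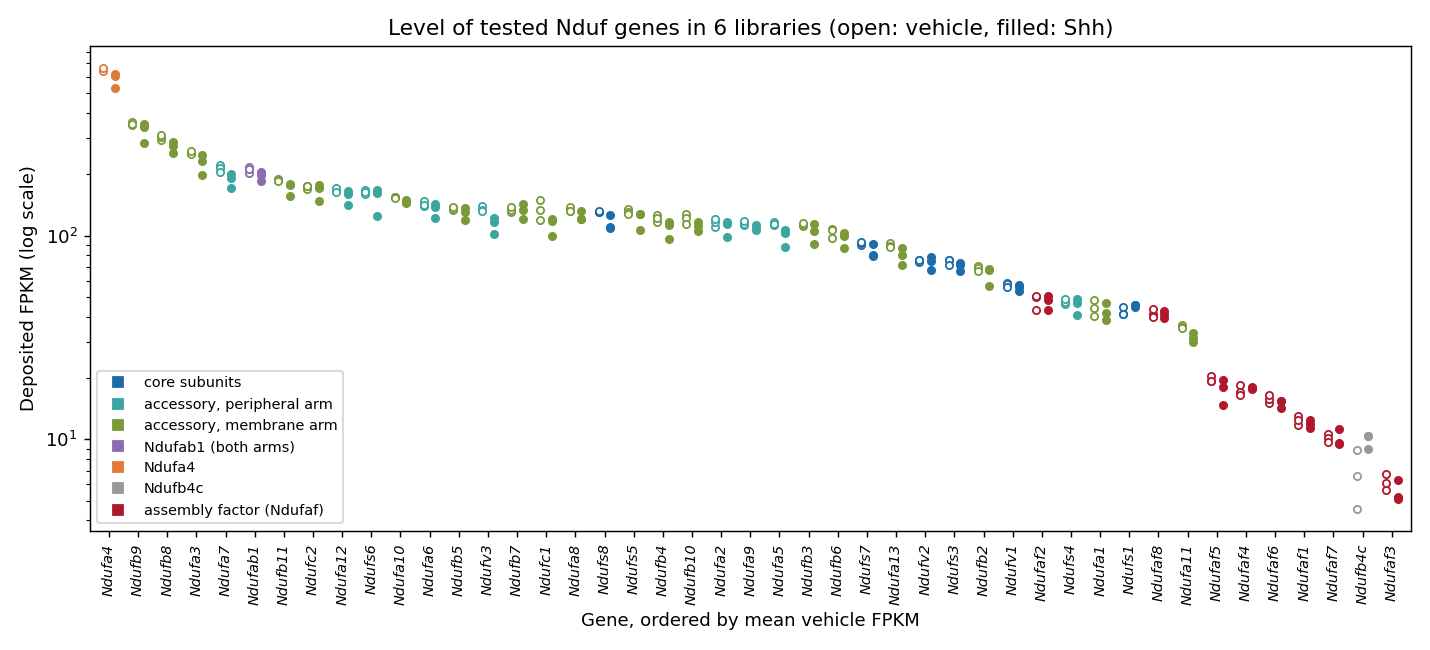
Deposited FPKM on a log scale for 45 of the 46 tested genes, ordered by their vehicle mean, with open points for vehicle and filled points for Shh libraries (3 each). Ndufa4 stands highest at 652 FPKM, and 6 of the 8 Ndufaf genes lie below every subunit gene but Ndufb4c.

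Transcript length moved with the fold changes of these libraries, and complex I subunits are short. Lengths recovered from the deposited counts and FPKM had a median of 656 bases over the subunit genes, 1208 bases over the Ndufaf genes and 2690 bases over all tested genes with a length. Of the 2295 shortest genes of the table (157 to 1524 bases), 40 were members, and the median log2 fold change of those 2295 genes was -0.090, while the 2294 longest genes (4503 to 24300.1 bases) had a median of 0.070. In Shh replicates 1, 2 and 3 the shortest genes had median log2 ratios to the vehicle mean of -0.026, -0.17 and -0.063. The longest genes had 0.011, 0.13 and 0.058. Across genes, Spearman's rho between length and log2 fold change was 0.54 over 11471 genes, 0.34 over the 38 subunit genes and 0.33 over the 8 Ndufaf genes. These are descriptions of points that share the same 6 libraries.

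Genes of like length gave the closest background. Among the 740 genes of 489 to 959 bases, the interquartile range of the subunit genes, the median log2 fold change was -0.11, 29.9% had an unadjusted p under 0.05 on the lower side, 31.1% had no overlap, and 88.5% lay below 0. All 38 subunit genes, of 310 to 2701 bases and so not all in that range, had 44.7%, 47.4% and 94.7% for the 3 shares. The 740 genes included 19 Nduf genes. Among the 1516 genes of 905 to 1507 bases, the interquartile range of the Ndufaf genes, the median was -0.075, 15.0% had an unadjusted p under 0.05 on the lower side, 20.4% had no overlap and 79.9% lay below 0. All 8 Ndufaf genes, of 445 to 3583 bases, had a median of -0.073 and shares of 12.5%, 0% and 87.5%. The 1516 genes included 10 Nduf genes. Median length differed between subunit and Ndufaf genes in the same sense as their fold changes, and its part in that difference was not tested.

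**Figure D4:**
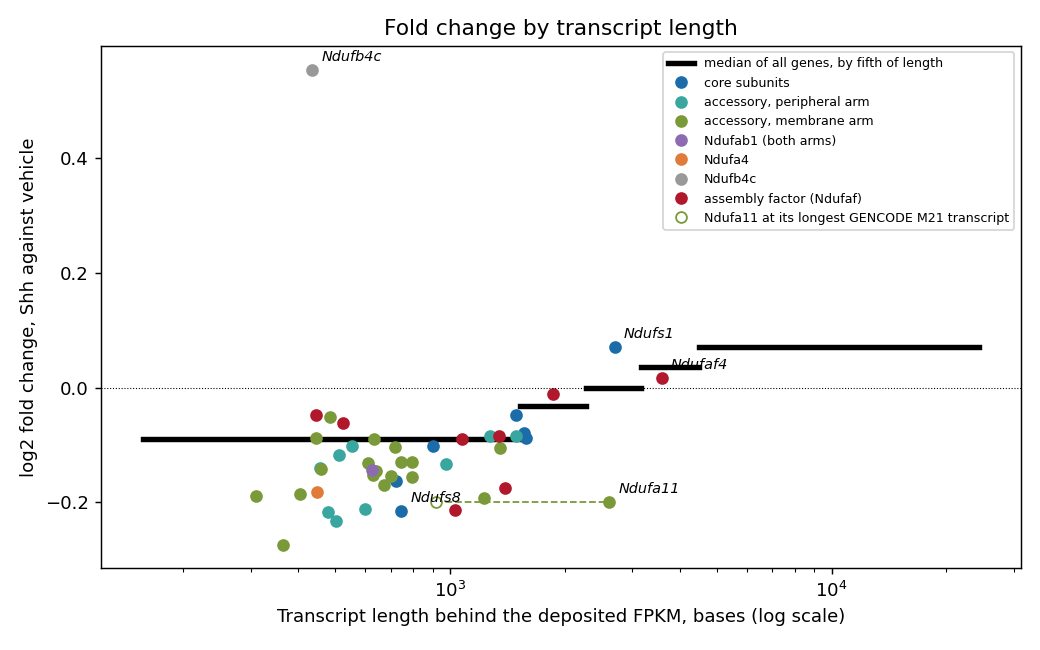
Log2 fold change of Shh over vehicle against transcript length in bases (log scale) for the 46 tested genes, coloured by role, with black bars for the medians of all genes in 5 classes of length. The bars run from -0.090 for the shortest genes to 0.070 for the longest, and the open point shows Ndufa11 at its GENCODE length of 918 bases.

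With a smooth offset for length in each library, the median of the subunit genes was -0.036 and that of the Ndufaf genes -0.011, against -0.0036 over all genes. Under that offset 7 of 38 subunit genes and 0 of 8 Ndufaf genes had an unadjusted p under 0.05 on the lower side, against 3.48% of all genes. Below 0 lay 30 of 38 subunit genes, against 52.1% of all genes. The fold changes of Ndufs8, Ndufa5 and Ndufv3 were -0.11, -0.11 and -0.10 under the offset. When Shh replicate 2 was left out, the subunit median was -0.055 with 12 of 38 at an unadjusted p under 0.05 on the lower side, against 3.67% of all genes, and the Ndufaf median was -0.021. When Shh replicate 1 was left out instead, the subunit median was -0.18, 30 of 38 had an unadjusted p under 0.05 on the lower side against 10.4% of all genes, and 7 members were called lower by edgeR, against 0.686% of all genes: Ndufa5, Ndufa7, Ndufa11, Ndufa13, Ndufs7, Ndufs8 and Ndufv3, with adjusted p-values of 0.0354 to 0.0487. Without Shh replicate 1 but with the length offset, 8 of 38 had an unadjusted p under 0.05 on the lower side against 5.57% of all genes, and Ndufa11 alone was called, at an adjusted p of 0.0475 in edgeR against 0.0348% of all genes. The offset without Shh replicate 2 left 3 of 38 there, against 2.6% of all genes, and the replicate number as a block gave 21 of 38, against 6.08%.

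Without Shh replicate 1 Ndufa11 was called with no length in the model and with recovered lengths, and not with GENCODE lengths, which also changed the lengths of other genes and the set of genes tested. The length behind its deposited FPKM was 2612 bases, while its longest transcript in GENCODE M21 had 918 bases, a ratio of 2.85, and the next highest ratio among members with a protein-coding transcript was 1.06, in Ndufa1. With lengths taken from GENCODE in place of the recovered ones, the log2 fold change of Ndufa11 was -0.11 rather than -0.20. Without Shh replicate 1 its adjusted p was then 0.249 in edgeR and 0 members were called, against 0.0587% of all genes. A level of Ndufa11 per length from the shorter transcript would be higher by the same ratio. Over all 37 subunit genes with a GENCODE length, that offset gave a median of -0.045 with 11 on the lower side at an unadjusted p under 0.05, against 4.18% of all genes.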

How the data were processed

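Sequencing covered 3 Shh and 3 vehicle libraries of Hepa 1–6 cells. For each gene the authors deposited an estimated count (36.4% of those above 0 being fractional) and an FPKM value, which divides it by transcript length and library total. Bowtie2 appears in the submitters' processing notes with no version. The counter, its filters, the build and the annotation: not given in the sources used here. Labels and paper name the cell line, whereas the series design mentions exosomes of liver, and the labels were followed. A further 6 per-sample columns were not used.

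The estimated counts were rounded. The main test was the quasi-likelihood test of edgeR 4.0.16 in R 4.3.3, with TMM scaling, a minimum count of 10, a minimum total of 15 and no covariate besides group. P-values were adjusted by Benjamini-Hochberg over 12286 genes, with 0.05 as the threshold. Deposited FPKM gave levels and, from 0.5 upward, transcript lengths. Alternatives included DESeq2 1.42.0, other scaling factors and filters, a replicate block, a length offset (a spline with 5 degrees of freedom in every library) alone or with the block, and omission of single libraries. On simulated counts of this comparison edgeR recovered 1% of 200 changes of 1.1-fold over 12185 genes, 47% of 1.2-fold over 12184 genes and 81% of 1.5-fold over 12187 genes, so that most changes of the size seen here were not detectable gene by gene.

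The members and lists were chosen with earlier results of these data known. Every Nduf gene could be named, and library values are given for 6 core subunits, the 6 other subunits with the smallest p, each Ndufaf gene, Ndufa4, Ndufa4l2 and the copies of Ndufb4. Of the other assembly factors and the regulators the 3 genes with the smallest p are named, and marker genes were named after their values had been seen. The NRF1 motif was shortened by a letter after a longer form had been counted. Values of Ndufc1 and Ndufab1 were added after they had been seen. The values of 1 tested gene are not reported here.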

Additional observations from a re-analysis of the deposited data

How the results depend on the processing

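A length offset with recovered lengths took the subunit genes at an unadjusted p under 0.05 on the lower side from 17 to 7, also with the replicate block, to 3 without Shh replicate 2 and to 8 without Shh replicate 1, and GENCODE lengths to 11. Leaving out single libraries gave 11 to 30, with 11 without vehicle replicate 1 and 30 without Shh replicate 1. The Ndufaf count of 1 was 0 in DESeq2, under the length offset (also with the block or without Shh replicate 2) and with GENCODE lengths, and 0 to 1 without single libraries. Members called at an adjusted p under 0.05 in edgeR were 0 to 7 without single libraries and 1 under the length offset without Shh replicate 1. Of all genes, 0.686% were called lower without Shh replicate 1, and 0.0348% with the offset added. Without single libraries the subunit median was -0.18 to -0.055 and the Ndufaf median -0.12 to -0.021, while the length offset without Shh replicate 1 gave an Ndufaf median of 0.011. GENCODE lengths and the offsets without a Shh library were chosen after seeing the data.

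Several genes changed sign, and the cause was not tested. Under the length offset these were 6 subunit and 4 Ndufaf genes, with log2 fold changes of 0.0038 for Ndufa6, 0.014 for Ndufa2, 0.021 for Ndufc2, 0.042 for Ndufa1, 0.072 for Ndufb7, 0.00052 for Ndufv2, -0.012 for Ndufaf4, 0.017 for Ndufaf7, 0.059 for Ndufaf2 and 0.081 for Ndufaf8. With the replicate block added they included -0.011 for Ndufaf4, 0.016 for Ndufaf7, 0.058 for Ndufaf2 and 0.081 for Ndufaf8. Under the length offset without Shh replicate 2, 15 genes changed sign, among them those at 0.040 for Ndufv2, 0.050 for Ndufaf7, 0.076 for Ndufaf2 and 0.044 for Ndufaf8. With the offset and without Shh replicate 1 they were 9, among them those at 0.0054 for Ndufs3, -0.037 for Ndufaf4, 0.061 for Ndufaf7, 0.070 for Ndufaf2, 0.039 for Ndufaf6 and 0.075 for Ndufaf8. With GENCODE lengths they were 8, among them those at -0.0043 for Ndufaf4, 0.049 for Ndufaf2 and 0.055 for Ndufaf8, and also without Shh replicate 1 they were 10, with -0.026 for Ndufaf4, 0.030 for Ndufaf7, 0.079 for Ndufaf2, 0.043 for Ndufaf6 and 0.067 for Ndufaf8. Leaving out single libraries gave -0.10 to 0.020 for Ndufv2, -0.017 to 0.066 for Ndufaf4, -0.093 to 0.041 for Ndufaf7 and -0.13 to 0.022 for Ndufaf2.

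The labels named no pairing of samples. Correlations between same-numbered libraries, after centring within each group, were -0.040, -0.054 and 0.098. With 3 libraries per group these values cannot show whether the samples were paired. With the replicate number as a block, 21 subunit genes had an unadjusted p under 0.05 on the lower side, against 6.08% of all genes. In that fit the subunit median was -0.14, the Ndufaf median -0.074 and 0 members were called.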
